A study of Mus musculus with 6 samples.

Results

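Replication-dependent histone genes are described here in 3T3 mouse embryonic fibroblasts, an established cell line, as 51 array probes for 47 genes out of 55681 probes with 35527 gene names. Members were chosen by name, as probes for genes called Hist1h to Hist4h in the array annotation, but the family itself was selected on measured values, since it was proposed after the contrast between the GapmeRs had been seen in these arrays. Its values are therefore given as a description. The cells received GapmeR Ntep, an antisense oligonucleotide against the long noncoding RNA Ntep, or GapmeR control by transfection, in both cases at 50 nM for 48 h. RNA came from 3 independent experiments, with 3 1-color Agilent arrays per GapmeR, and by the file headers all 6 arrays were on a single slide. The deposited labels do not say which arrays belong to the same experiment, so experiments 1, 2 and 3 below are pairs inferred from the order of deposition.

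Core histones H2A, H2B, H3 and H4 form the protein spool of the nucleosome, and H1 binds the linker DNA between nucleosomes. Cells make most of their histone protein during DNA replication, from clustered genes without introns whose transcripts end in a conserved stem-loop in place of a poly(A) tail. Some members of the clusters also give polyadenylated transcripts, and a few are testis genes that serve germ cells.

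Ntep itself, called A630089N07Rik on the array, was read first. In experiments 1, 2 and 3, its probe gave 472, 91.5 and 226 on arrays labelled GapmeR Ntep, and 271, 272 and 361 on arrays labelled GapmeR control. Signals of the labels overlapped, and in experiment 1 the array labelled GapmeR Ntep was the higher of its pair. The log2 difference was -0.48 (SE 0.58, limma adjusted p = 0.632), and 0.80, -1.57 and -0.68 within the experiments, so the arrays are called by their labels. The difference turned to 0.13 without GapmeR Ntep replicate 2, and was -1.08 without GapmeR Ntep replicate 1, -1.16 without both arrays of experiment 1 and -0.19 with normexp background correction. The share of probes well above background ran from 43.7% to 53.3% per array, and saturation was absent.

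Among the 51 histone probes, the arrays labelled GapmeR Ntep were mostly the brighter ones. Signal after quantile normalization was tested for the 48 probes whose brighter group averaged 50 or more, and with the GapmeR Ntep label 40 of these were higher and 8 lower (54.5% and 45.5% of all tested probes). In all 3 inferred pairs 29 probes were higher (32.4% of all tested probes), and 0 were lower (28.2%). After Benjamini-Hochberg adjustment over the 30990 tested probes (limma, adjusted p under 0.05), 6 histone probes rose, where 2.09% of all tested probes were called higher, and 0 fell, where 3.21% were called lower. At an unadjusted p under 0.05, 18 histone probes were higher and 0 lower in limma (12.5% and 12.5% of all tested probes), and 16 and 0 with an unmoderated test per probe (11.8% and 10.9%). With a fold of 2 or more at an unadjusted p under 0.01, 12 were higher (3.08% of all tested probes) and 0 lower (5.06%). There was no overlap between the labels for 18 higher probes (17% of all tested probes) and 0 lower probes (15.1%). Nothing is read from these shares, because the family was proposed with the contrast known. The arrays read RNA of whole cultures, in which fewer cells of a type and less RNA per cell cannot be told apart.

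The median log2 difference of the 48 probes was 0.52, beside 0.06 for all tested probes. It was 0.91 in experiment 1, 0.37 in experiment 2 and 0.39 in experiment 3, so the family stood higher in each, and farthest in the experiment where Ntep went against its label. Scaling to the 75th percentile moved the median of all tested probes up by 0.16, and the histone probes then stood 0.46 above it, against 0.46 before. By class, the medians were 1.36 for H2B, 0.82 for H1, 0.82 for H4, 0.35 for H3 and 0.05 for H2A. All 5 were above 0 with each normalization tried, but that of H1 was 0.29 with normexp background correction and -0.03 over the 4 H1 probes well above background on all arrays, and that of H2A was 0.26 with 75th percentile scaling. On leaving out single arrays, the H1 median was 0.49 without GapmeR Ntep replicate 3, 0.54 without GapmeR control replicate 1 and 1.24 without GapmeR Ntep replicate 2, and the H3 median 0.64 without GapmeR Ntep replicate 2. The H2A median lay between 0.023 without GapmeR control replicate 2 and 0.10 without GapmeR Ntep replicate 1, and each single omission moved it by more than 1.5 times. Not tested were Hist2h2ab, Hist3h2ba and Hist3h2bb-ps, whose probes were not well above background on any array, while 44 of the 51 probes were on all 6.

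**Figure D1:**
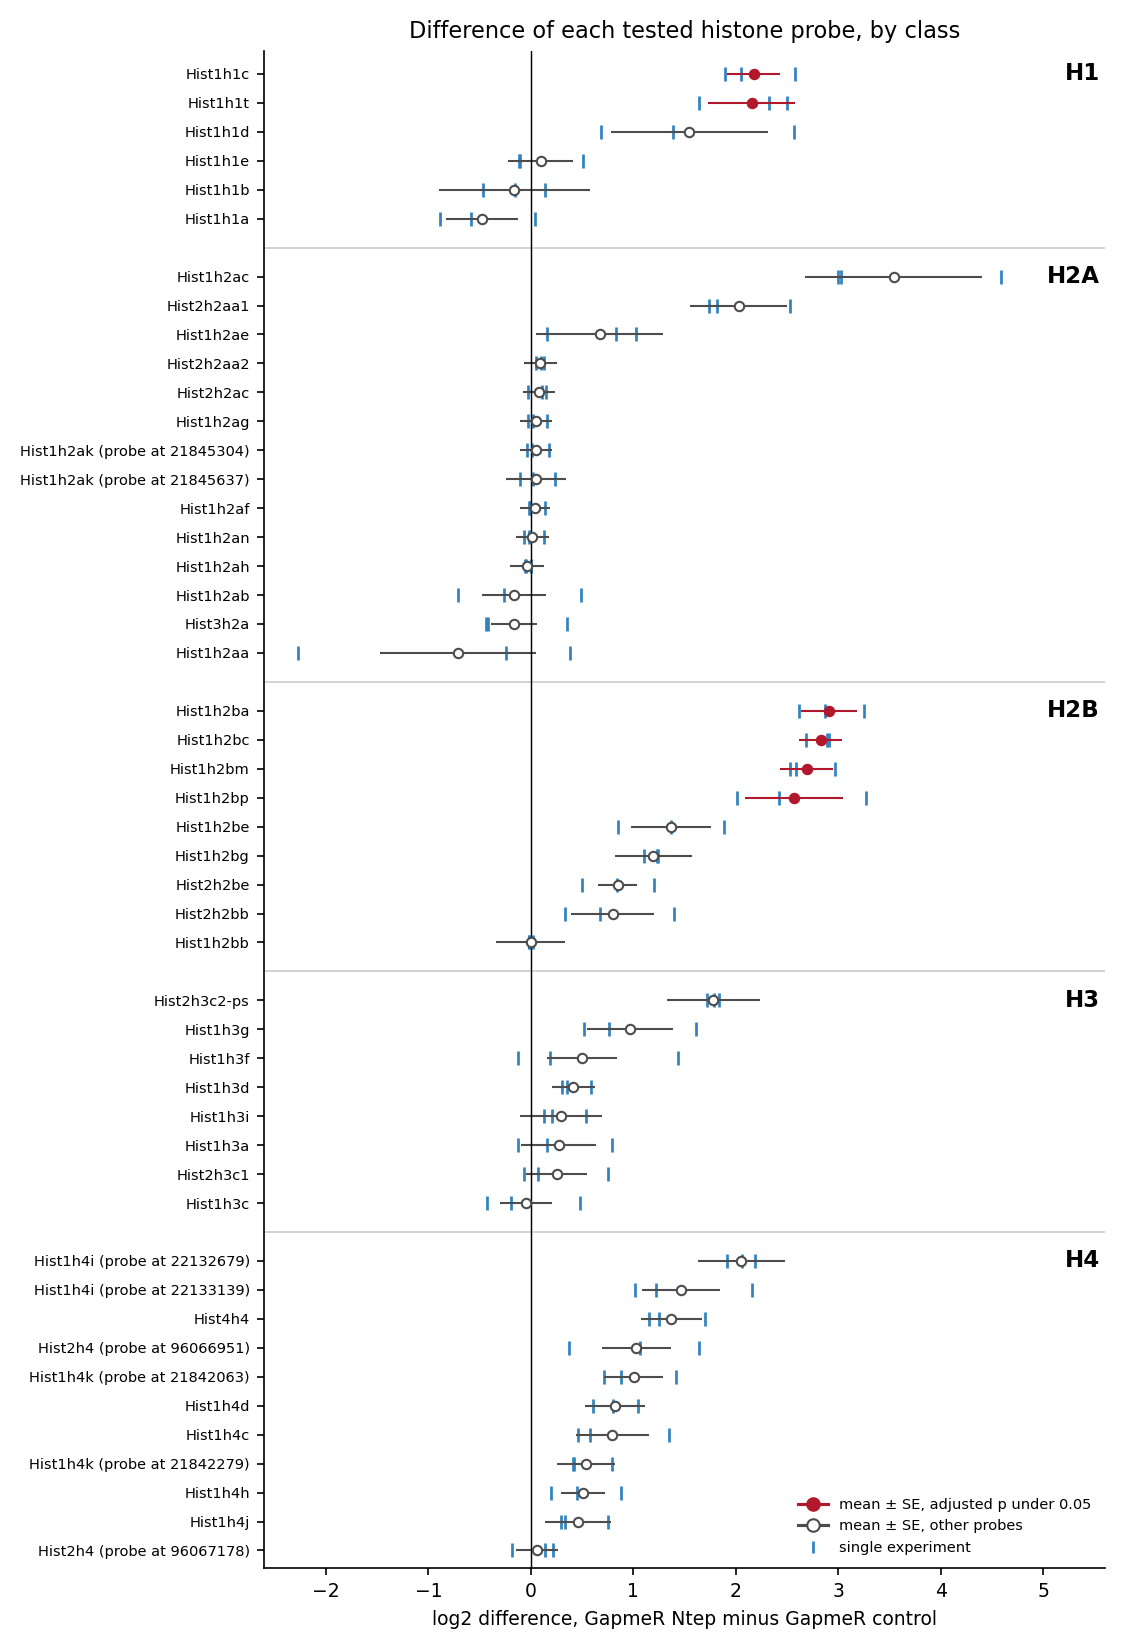
Log2 difference (GapmeR Ntep minus GapmeR control) of the 48 tested histone probes, ordered by class and size, with the SE of the fit as a bar and each of the 3 experiments as a tick. Filled points passed an adjusted p of 0.05.

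Of 6 linker histone probes, 2 rose and 0 fell in limma (2.09% and 3.21% of all tested probes), as many as were higher and lower at an unadjusted p under 0.05 (12.5% and 12.5%), and 0 passed the adjusted limit either way with the unmoderated test (0.474% and 0.445%). Hist1h1c (RefSeq H1f2), a linker histone of dividing and resting somatic cells, is read by a probe at mm9 chr13:23832018-23832077. In the order of the experiments, it gave 150499.5, 87079 and 130849.9 on arrays labelled GapmeR Ntep and 25272, 23408 and 31576 on arrays labelled GapmeR control. The lowest of the former was far above the highest of the latter, with no overlap. Hist1h1c rose by 2.17 on the log2 scale (SE 0.26, limma adjusted p = 0.0243), from 26752 ± 4280.4 to 122809 ± 32466 (mean ± SD, n = 3 each).

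Hist1h1t, the linker histone of spermatocytes, gave weak signals. They were 325, 123 and 159 with the GapmeR Ntep label and 57.6, 39.3 and 31.8 with the GapmeR control label. The labels did not overlap, but while 3 of 3 arrays labelled GapmeR Ntep read its probe well above background, 1 of 3 control arrays did. Hist1h1t rose by 2.16 (SE 0.42, adjusted p = 0.0460), and missed the limit with 75th percentile scaling (adjusted p = 0.0521), with a floor of 50 (0.0517) and with normexp background correction, which also took its difference to 0.96. Over all alternatives its adjusted p ran from 0.00382 to 0.172. Hist1h1d (H1f3), another somatic linker histone, differed by 1.55 (adjusted p = 0.270), with 2 arrays labelled GapmeR Ntep and 1 control array well above background, and by 0.46 with normexp background correction (0.46 to 2.27 over all alternatives). The other somatic members did not pass either: Hist1h1a differed by -0.48 (adjusted p = 0.445), Hist1h1b by -0.16 (0.908) and Hist1h1e by 0.10 (0.870). Over all alternatives Hist1h1a ran from -0.75 to -0.17, while Hist1h1b (-0.70 to 0.53) and Hist1h1e (-0.16 to 0.37) changed sign. Hist1h1b gave 1022, 4943 and 3823 against 1412, 4494 and 4268, lowest in experiment 1 for both labels.

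Of 9 tested H2B probes, 4 rose and 0 fell in limma (2.09% and 3.21% of all tested probes), and 7 were higher and 0 lower at an unadjusted p under 0.05 (12.5% and 12.5%). Past the adjusted limit, 1 was higher with the unmoderated test (0.474% of all tested probes), 3 without GapmeR Ntep replicate 1 (0.573%), 1 without GapmeR control replicate 1 (0.112%), and 0 without GapmeR control replicate 2, GapmeR Ntep replicate 3 or GapmeR control replicate 3. Hist1h2bc (H2bc4), an H2B gene at mm9 chr13:23784254-23784313, gave 99532, 68439 and 87895 with the GapmeR Ntep label. Its control arrays gave 13292, 10613 and 11826. The labels stood far apart, and the arrays of a label lay close together. The rise was 2.83 on the log2 scale (SE 0.21, limma adjusted p = 0.0157), the only histone call kept by the unmoderated test of the methods (adjusted p = 0.0428; 0.00242 to 0.107 over all alternatives).

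Hist1h2ba (H2bc1), the H2B of the testis, sits near the far end of the Hist1 cluster, at mm9 chr13:24025811-24025870 (minus strand). Arrays labelled GapmeR Ntep gave 37219, 21209 and 25069, and those labelled GapmeR control 3903, 2909 and 4082. The lowest of the former exceeded the highest of the latter, and each of the 6 arrays read it well above background. Hist1h2ba rose by 2.91 (SE 0.27, adjusted p = 0.0182), with 3.25, 2.87 and 2.62 in the single experiments.

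Hist1h2bm (H2bc14), an H2B gene at the other end, at mm9 chr13:21814057-21814116 (plus strand), gave 37684, 22348 and 30142 with the GapmeR Ntep label and 4817, 3729 and 5230.1 with the GapmeR control label. Again no array of either label reached the other label. It rose by 2.69 (SE 0.26, adjusted p = 0.0182). The probes of Hist1h2ba and Hist1h2bm are shown, in the direction of the transcript, because both lie in coding sequence and neither shares a run of 20 bases with the probe of another gene. How well they match the transcripts of other H2B genes was not tested. Hist1h2ba is on mm9 chr13 minus and Hist1h2bm on mm9 chr13 plus, and lower case marks no feature.
Hist1h2ba: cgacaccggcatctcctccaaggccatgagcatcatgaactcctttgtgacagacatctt
Hist1h2bm: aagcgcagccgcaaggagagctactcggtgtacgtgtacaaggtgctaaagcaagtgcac

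Hist1h2bp (H2bc22), a further H2B gene, gave 2655, 749 and 1457 with the GapmeR Ntep label and 276, 186 and 272 with the GapmeR control label. Its labels did not overlap, though the arrays labelled GapmeR Ntep spread widely. Hist1h2bp rose by 2.56 (SE 0.48, adjusted p = 0.0411). Of the remaining H2B probes, Hist1h2be (1.36), Hist1h2bg (1.19) and Hist2h2be (0.85) had labels that did not overlap and adjusted p-values of 0.0980, 0.120 and 0.0591. With experiments as blocks Hist1h2be (0.0446, in a range of 0.0213 to 0.287 over all alternatives) and Hist1h2bg (0.0314, in a range of 0.0132 to 0.325) passed. Hist2h2bb differed by 0.80 (adjusted p = 0.282). Hist1h2bb gave 139, 224 and 256 against 139.8, 227 and 252. Each experiment gave nearly the same value under both labels, and its difference was -0.0017 (adjusted p = 0.998), or 0.12 with 75th percentile scaling (-0.26 to 0.27 over all alternatives, with changes of sign).

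**Figure D2:**
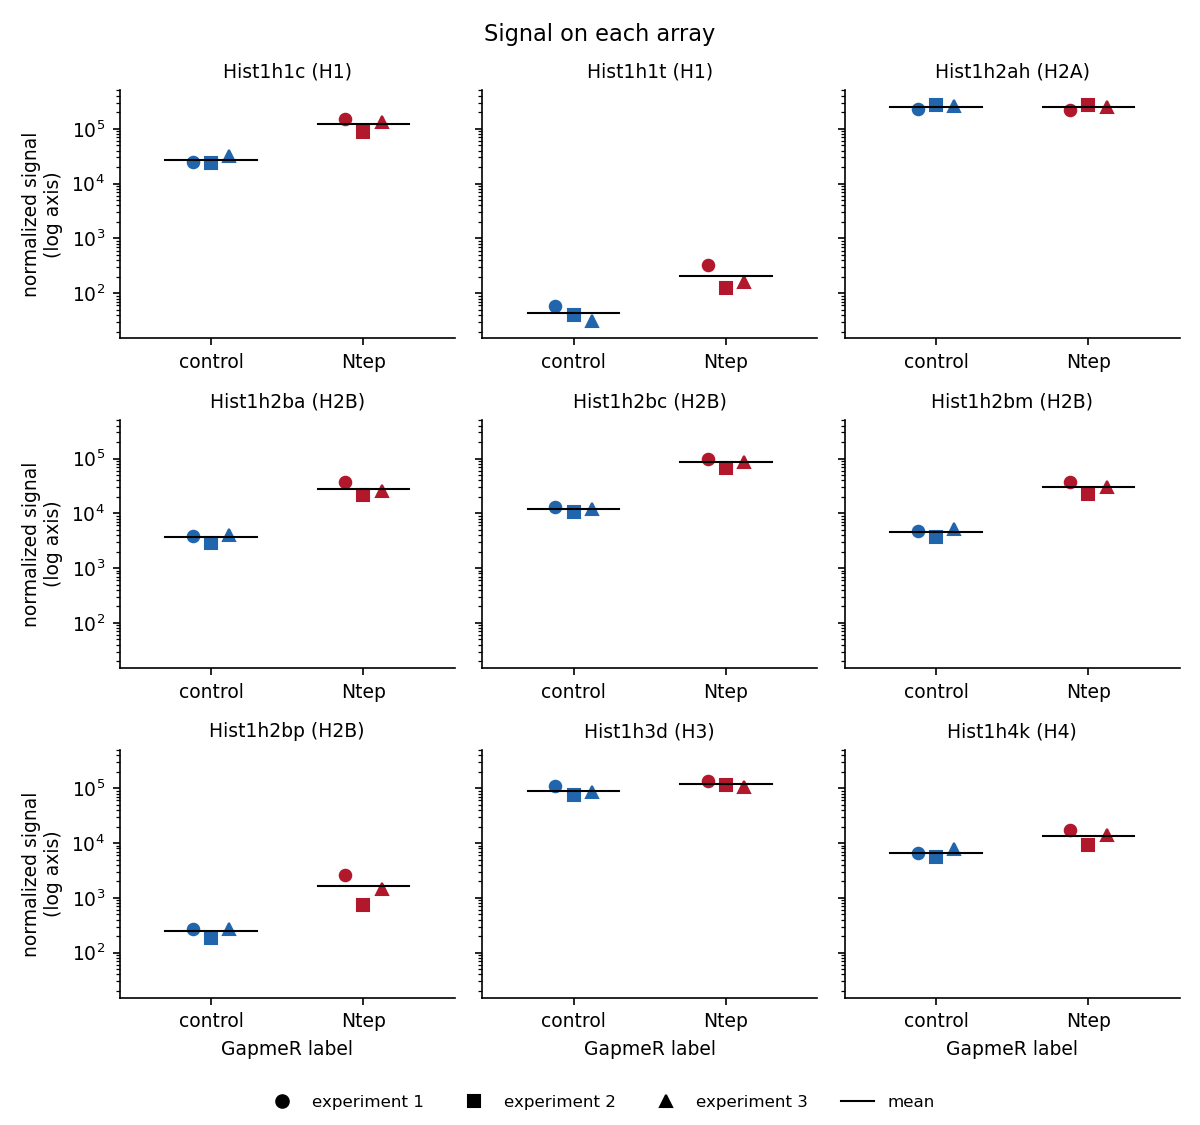
Normalized signal (log axis) on each of the 6 arrays for the 6 histone genes past an adjusted p of 0.05 and for the member of H2A, H3 and H4 with the highest mean signal on the control arrays. Symbols mark the experiment and lines the group mean, and the labels do not overlap for the 6 called genes and Hist1h4k, but overlap for Hist1h2ah and Hist1h3d.

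H2A genes divided into a large group with differences near 0 and a few that stood far higher. No H2A probe passed in limma, nor with the unmoderated test, and 2 of 14 were higher at an unadjusted p under 0.05, beside 12.5% of all tested probes. Hist1h2ac (H2ac6), an H2A gene in the same stretch of chromosome 13 as Hist1h2bc, gave 2344, 509 and 2631 with the GapmeR Ntep label and 97.2, 62.6 and 329 with the GapmeR control label. Labels did not overlap, yet for both experiment 3 was the highest and experiment 2 the lowest, which the unpaired fit counts as spread. The difference was 3.54 (SE 0.86, adjusted p = 0.0699), and 0.0312 with experiments as blocks (0.0212 to 0.221 over all alternatives). Hist2h2aa1, an H2A gene of the Hist2 cluster, differed by 2.03 (SE 0.47, adjusted p = 0.0639, or 0.0310 with blocks, and 0.00776 to 0.207 over all alternatives). Its arrays gave 29070.2, 9342 and 14572 against 5040.0, 2649 and 4372, again without overlap.

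Hist1h2ae differed by 0.67 (adjusted p = 0.528). At the low end were Hist1h2aa (-0.71, 0.590), the testis H2A, which was well above background on 1 control array alone and differed by 0.38, -2.27 and -0.24 in the single experiments, Hist3h2a (-0.17, 0.668) and Hist1h2ab (-0.16, 0.772). Over all alternatives Hist1h2ae ran from 0.296 to 1.303, Hist1h2aa from -1.32 to -0.14, Hist3h2a from -0.42 to -0.04 and Hist1h2ab, which changed sign, from -0.48 to 0.06. Among the others, Hist1h2ah gave 221584, 267589 and 253412 with the GapmeR Ntep label and 230631, 267111 and 262616 with the GapmeR control label. These signals overlapped throughout, and the difference was -0.04 (SE 0.17, adjusted p = 0.913). With 75th percentile scaling it became 0.19, where the median of all tested probes was 0.22.

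Hist1h2ah is 1 of 7 H2A probes at the end of the coding sequence that share long runs of bases, and their differences lay between -0.04 and 0.09 with a median of 0.05. The 6 that end at the stop codon are printed below, in the direction of the transcript, with the longest run each shares with the Hist1h2ak probe in capitals, to show how alike they are. In mm9 the files place Hist1h2af on chr13 plus, Hist1h2ak, Hist1h2ah and Hist1h2an on chr13 minus and the Hist2 probes on chr3 plus, the last of these in doubt. The shared run is 34 bases in Hist1h2af, Hist1h2ah and Hist2h2ac, 29 in Hist2h2aa2 and 18 in Hist1h2an. A transcript of any of these genes could bind several of the probes, so their values are not independent readings of 7 genes, and the annotation places the probes of Hist2h2aa2 and Hist2h2ac on overlapping bases of chromosome 3. Their sequences differ and RefSeq has both genes on the minus strand, so these listed positions are doubtful.
Hist1h2ak: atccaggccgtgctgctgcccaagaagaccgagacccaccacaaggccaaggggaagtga
Hist1h2af: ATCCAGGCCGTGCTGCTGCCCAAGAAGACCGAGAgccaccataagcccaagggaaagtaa
Hist1h2ah: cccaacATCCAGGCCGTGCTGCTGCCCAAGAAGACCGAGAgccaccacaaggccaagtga
Hist2h2ac: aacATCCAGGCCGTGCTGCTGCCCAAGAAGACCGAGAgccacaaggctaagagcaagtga
Hist2h2aa2: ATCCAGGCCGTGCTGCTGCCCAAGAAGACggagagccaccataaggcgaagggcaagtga
Hist1h2an: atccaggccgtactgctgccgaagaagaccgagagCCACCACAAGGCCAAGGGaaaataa

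No H3 probe passed in limma or with the unmoderated test, and 1 of 8 was higher at an unadjusted p under 0.05, beside 12.5% of all tested probes. That was Hist2h3c2-ps (RefSeq H3c15), an H3 gene of the Hist2 cluster at mm9 chr3:96042034-96042093, with 5278, 2099 and 2884 against 1482, 639 and 834. Its labels did not overlap, and the 3 experiments gave nearly the same difference, 1.83, 1.72 and 1.79. The difference of 1.78 (SE 0.45) had an adjusted p of 0.0765, or 0.0310 with experiments as blocks (0.00596 to 0.236 over all alternatives). Hist1h3g differed by 0.97 (adjusted p = 0.220), Hist1h3f by 0.50 (0.410) and Hist1h3c by -0.05 (0.921). Over all alternatives these ran from 0.58 to 1.37, 0.03 to 0.77 and -0.31 to 0.13, and the single experiments gave 1.43, -0.12 and 0.18 for Hist1h3f. Hist1h3d gave 138442, 114653 and 107173 against 108068, 76511 and 86531. The lowest array labelled GapmeR Ntep was just under the highest control array, and the difference was 0.42 (SE 0.21, adjusted p = 0.273).

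All 11 H4 probes were higher with the GapmeR Ntep label, from 0.06 to 2.06, and with each normalization tried, though the dimmer Hist2h4 probe turned to -0.05 without GapmeR Ntep replicate 1 and -0.08 without GapmeR control replicate 2. None passed in limma or with the unmoderated test, while 6 were higher at an unadjusted p under 0.05 (12.5% of all tested probes) and 5 passed with experiments as blocks (6.54%). Hist1h4i (H4c9) was read by 2 probes, and the brighter gave 12436, 5679.8 and 7141 with the GapmeR Ntep label and 2977, 1245 and 1894 with the GapmeR control label. No array crossed between labels. The brighter probe differed by 2.06 (SE 0.43, adjusted p = 0.0513, with blocks 0.0310, over all alternatives 0.00524 to 0.169). The other differed by 1.47 (SE 0.38, adjusted p = 0.0796, with blocks 0.0475, over all alternatives 0.0167 to 0.251). The brighter starts at position 483, past the 403 bases of the RefSeq gene, and shares a run of 21 bases with the probe of Galns. The other starts within the gene. Hist4h4, the lone H4 gene on chromosome 6, gave 7964, 4138 and 5439 against 2444, 1734 and 2444. It too had labels that did not overlap, and differed by 1.37 (SE 0.30, adjusted p = 0.0552, with blocks 0.0337, over all alternatives 0.00781 to 0.195).

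Hist1h4k gave 17642, 9238 and 14159.7 against 6615, 5620.4 and 7714 with its brighter probe, and differed by 1.00 (adjusted p = 0.0973, with blocks 0.0493, over all alternatives 0.0167 to 0.291). Its second probe differed by 0.54. The probes of Hist2h4 gave 1.03 (adjusted p = 0.131) for the brighter and 0.06 for the other (0.879). Hist1h4d differed by 0.82 (adjusted p = 0.156, with blocks 0.0480, over all alternatives 0.0362 to 0.403). Whether the probes of a gene differ from each other was not tested.

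With experiments as blocks, 16 histone probes were higher past the adjusted limit in place of 6, and 0 lower, while calls over all tested probes went from 647 to 2026 higher and from 995 to 2266 lower. Residuals of arrays from the same experiment correlated at 0.621, 0.696 and 0.801 over the 48 histone probes, a correlation across probes that are not independent. Leaving out GapmeR control replicate 2, GapmeR Ntep replicate 3 or GapmeR control replicate 3 left 0 histone probes past the adjusted limit in limma, with 15, 17 and 19 higher at an unadjusted p under 0.05, beside 7.49%, 9.66% and 7.43% of all tested probes. The adjusted p of Hist1h2bc was then 0.107, 0.0817 and 0.0753. Among all tested probes, 0, 0 and 5 then passed. Without GapmeR control replicate 1, Hist1h2bc alone passed (adjusted p = 0.0447), and without GapmeR Ntep replicate 1 Hist1h1t (0.0649) and Hist1h2bp (0.0633) did not. Without GapmeR Ntep replicate 2, 8 histone probes passed (1.65% of all tested probes were called higher). Over all alternatives, the adjusted p ran from 0.00307 to 0.127 for Hist1h1c, 0.00258 to 0.114 for Hist1h2ba, 0.00265 to 0.114 for Hist1h2bm and 0.00412 to 0.160 for Hist1h2bp.

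Without both arrays of experiment 1, an alternative chosen after seeing the data, the median of the 48 probes was 0.47, those of H3 and H1 were 0.10 and 0.53, and 4 passed (1.18% of all tested probes were called higher). Hist1h1c (1.96, adjusted p = 0.0588) and Hist1h2bp (2.24, 0.0714) then missed the limit.

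Histone genes sit in clusters, and probes that differed widely were neighbours. Of the 51 probes, 37 lie on chromosome 13 (Hist1), 10 on chromosome 3 (Hist2), 3 on chromosome 11 (Hist3) and 1 on chromosome 6 (Hist4). The median was 0.51 over the 37 Hist1 probes and 0.80 over the 9 tested Hist2 probes. With normexp background correction these medians were 0.41 and 0.42, without the filter 0.51 and 0.53, without experiment 1 0.44 and 0.50, and without GapmeR Ntep replicate 2 0.77 and 0.96. On chromosome 13 the probes form a block from base 21814057 to 22134451 in mm9, with 14 probes and a median of 0.38, and a block from base 23622937 to 24026527, with 23 probes and a median of 0.67. Of the 6 genes that rose, 2 lie in the former block and 4 in the latter, where 2.09% of all tested probes were called higher. Probes of neighbours also gave unlike values where the 300-base windows around the starts of opposed genes overlap, though no such difference was tested. Those of Hist1h2ae and Hist1h2bg differed by 0.67 and 1.19, and those of Hist1h2an and Hist1h2bp by 0.02 and 2.56. The Hist1h2an probe is 1 of the 7 H2A probes that share long runs, so its value may not read Hist1h2an alone. The windows of Hist1h2aa and Hist1h2ba overlap too, but the Hist1h2aa probe was well above background on 1 array alone.

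**Figure D3:**
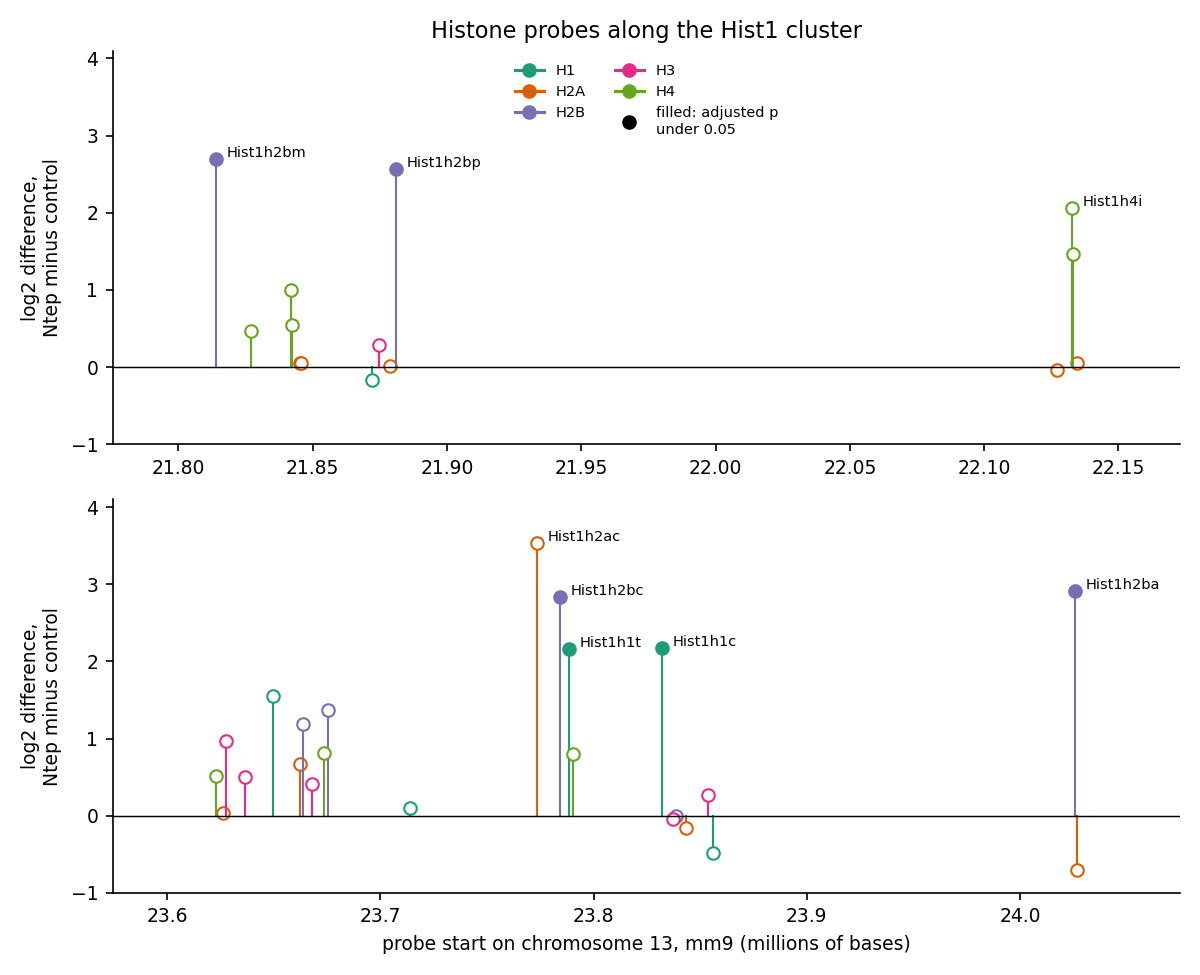
Log2 difference (GapmeR Ntep minus GapmeR control) of the 37 histone probes on chromosome 13, at their starts in mm9 in Mb, with the block of 14 probes above and the block of 23 below. Color marks the class and filled points the 6 probes past an adjusted p of 0.05, with the line at 0 marking no difference.

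Members were also grouped by where the probe lies in its gene, after the values were seen, and the difference between these groups was not tested. For 8 probes, the listed position in the transcript record starts beyond the length of the RefSeq gene, past its annotated end. The 7 of them that were tested had a median of 1.78, from -0.17 for Hist3h2a to 3.54 for Hist1h2ac, against 0.46 for the 41 tested probes within the gene. The probe of Hist1h1c starts at position 1342 where the RefSeq gene spans 725 bases, and that of Hist1h2ac at 2426 where it spans 487. By that listing, both read transcripts longer than the annotated gene. Long RefSeq models belong to genes that rose, Hist1h2bc (8282 bases) and Hist1h2bp (14079), and to genes that did not pass, Hist1h2be (37455) and Hist2h2be (2667). Of the 6 probes that rose, 1 starts past the listed end and 5 within the gene, where 2.09% of all tested probes were called higher. Those within include Hist1h2bc and Hist1h2bp, whose probes start at 632 and 505 and count as within by their long models. The H2B genes with short models span 432 to 493 bases. Hist1h2be (start 2375) and Hist2h2be (1849) count as within in the same way, so the counts and the medians depend on the model.

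Of the 55681 probes, 5 hold the histone stem-loop (GGCTCTNNNNAGAGCC), and all are members. Their differences lay between 0.27 and 2.03, with a median of 0.80. Past the adjusted limit, there were 0 of 5 in limma or with the unmoderated test. At an unadjusted p under 0.05 in limma, 1 was higher and 0 lower, beside 12.5% and 12.5% of all tested probes. Hist2h2aa1 was the highest of these, at 2.03, and Hist1h3a the lowest. In the Hist2h2aa1 probe the stem-loop lies near the start, so most of that probe covers bases past it. In the other probes it lies near the end, and these differed by 0.27 to 0.97. Which forms of the transcripts each probe binds was not tested. Within each of the 5 probes, 30 bases around the stem-loop are shown, with the stem-loop in capitals. The loop of Hist1h3g differs from that of the others, while the stems are the same by the search. In mm9, Hist2h2aa1 and Hist2h2bb lie on chr3 plus, Hist1h3g on chr13 plus, and Hist1h3a and Hist1h3i on chr13 minus.
Hist2h2aa1: taaaaaGGCTCTTTTCAGAGCCacccactg
Hist2h2bb: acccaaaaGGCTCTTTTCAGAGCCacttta
Hist1h3a: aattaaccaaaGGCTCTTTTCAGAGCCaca
Hist1h3g: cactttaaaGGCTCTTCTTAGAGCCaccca
Hist1h3i: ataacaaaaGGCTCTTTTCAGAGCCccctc

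Probes were also compared by shared sequence. The 18 probes with a run of at least 20 bases in common with the probe of another gene had a median of 0.28, and 0 passed in limma or with the unmoderated test (4 higher and 0 lower at an unadjusted p under 0.05 in limma, beside 12.5% and 12.5% of all tested probes). The 30 tested probes without such a run had a median of 0.91, and these hold all 6 that rose, where 2.09% of all tested probes were called higher. Of the 18, 7 are the H2A probes at the end of the coding sequence, and the other 11 had a median of 0.54, so sharing and class cannot be told apart here. The difference between the groups was not tested.

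Promoters of the members differ in their elements by class. RefSeq promoter windows (GRCm38.p6, 250 bases before to 50 after the start) were matched for 41 of 46 member symbols, giving 42 windows, and searched on both strands. A TATA box (TATAAA) was in 25 of 42 windows and in 13.6% of all 32851 windows, and a CCAAT box (CCAAT) in 37 and 37.4%, which covers all windows of H1, H2A, H2B and H3 and 2 of 7 of H4. The octamer (ATTTGCAT), bound by the factor Pou2f1, was in 7 of 14 H2A windows, 6 of 9 H2B windows and none of H1, H3 and H4, against 1.74% of all windows. The H1 box (AAACACA) was in 5 of 6 H1 windows, 2 of 14 H2A windows and 2 of 9 H2B windows, against 7.18% of all. The 250 bases before the start of Hist1h1c, Hist1h2bm and Hist1h2ba, on chromosome 13, are shown as the promoters of 3 of the members that rose, 1 in H1 and 2 in H2B, with these elements in capitals on either strand. Hist1h1c (chr13:23738557-23738806, plus strand) holds an H1 box and a CCAAT box. Hist1h2bm (chr13:21721794-21722043, plus strand) and Hist1h2ba (chr13:23934157-23934406, minus strand) each hold an octamer and an H1 box beside CCAAT boxes, and Hist1h2ba a TATA box. The window of Hist1h2bp, which also rose, holds neither an octamer nor an H1 box. Those of Hist1h2aa and Hist1h2ab, which did not pass, hold both. The window of Hist1h2aa overlaps that of Hist1h2ba, and the Hist1h2aa probe was well above background on 1 array alone. The windows of 3 pairs of H2A and H2B genes overlap, so a shared site counts for both classes. Whether these elements relate to the differences was not tested.
Hist1h1c: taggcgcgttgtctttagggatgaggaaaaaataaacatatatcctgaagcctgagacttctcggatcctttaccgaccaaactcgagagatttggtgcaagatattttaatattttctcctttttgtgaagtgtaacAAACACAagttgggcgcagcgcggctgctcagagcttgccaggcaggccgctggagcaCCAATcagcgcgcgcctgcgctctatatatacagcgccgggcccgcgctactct
Hist1h2bm: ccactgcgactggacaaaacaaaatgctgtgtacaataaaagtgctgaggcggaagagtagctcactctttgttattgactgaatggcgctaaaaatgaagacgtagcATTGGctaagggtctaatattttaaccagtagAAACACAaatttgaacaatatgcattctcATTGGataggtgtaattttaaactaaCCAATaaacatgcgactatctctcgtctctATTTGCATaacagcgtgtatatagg
Hist1h2ba: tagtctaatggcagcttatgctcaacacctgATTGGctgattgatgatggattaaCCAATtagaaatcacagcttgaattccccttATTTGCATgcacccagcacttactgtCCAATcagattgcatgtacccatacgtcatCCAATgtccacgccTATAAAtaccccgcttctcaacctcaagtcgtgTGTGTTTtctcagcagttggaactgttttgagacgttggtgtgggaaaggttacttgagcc

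For the gene lists that follow, 12.5% of all tested probes were higher and 12.5% lower at an unadjusted p under 0.05 in limma, and 2.09% and 3.21% past the adjusted limit (0.474% and 0.445% with the unmoderated test). Replication-independent histone genes stood near the median of all tested probes. Of 15 replication-independent histone genes, which supply variants through the cycle, 12 were tested, and 0 passed in limma in either direction by their brightest probe (2 higher and 0 lower at an unadjusted p under 0.05, the same counts as with the unmoderated test, by which 0 passed the adjusted limit). Their median was 0.07, or 0.26 with 75th percentile scaling, and all tested probes had 0.22 then. The linker H1f0 differed by -0.19 (adjusted p = 0.938), and by -1.60, 0.72 and 0.31 in experiments 1, 2 and 3, with a change of sign. The damage-marking H2afx differed by 0.11 (adjusted p = 0.764) and the promoter variant H2afz by 0.01 (0.966), while H1fx was too dim to test. A second H2afz probe differed by -0.19. For H2afj, a second, dimmer probe rose by 1.25 (adjusted p = 0.0330), where the brightest differed by 0.02. With experiments as blocks the oocyte linker H1foo passed (1.33, adjusted p = 0.0475 in place of 0.0876, and 0.0116 to 0.225 over all alternatives).

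An H2B gene that the array calls Gm13646 (RefSeq H2bc23), outside the naming rule, gave 5350.2, 3123 and 5701 with the GapmeR Ntep label. With the GapmeR control label it gave 174, 227 and 373. No label reached the other, and it rose by 4.22 (SE 0.37, adjusted p = 0.0169), a call lost without GapmeR control replicate 2 (adjusted p = 0.113), GapmeR Ntep replicate 3 (0.0817) and GapmeR control replicate 3 (0.0651), and with the unmoderated test (0.0516). Over all alternatives its adjusted p ran from 0.00262 to 0.113. It was chosen after its values were seen.

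Genes that process or degrade histone transcripts had differences of both signs. All 20 were tested, 1 rose and 0 fell in limma (5 higher and 3 lower at an unadjusted p under 0.05, and 0 and 1 past the adjusted limit with the unmoderated test), with a median of 0.20. Lsm11, a protein of the U7 particle that guides cleavage after the stem-loop, gave 4142, 3074 and 3745 against 1783, 1677 and 1866. Its labels did not overlap, and it rose by 1.03 (SE 0.18, adjusted p = 0.0367), a call that stood on leaving out GapmeR Ntep replicate 2 and was lost on leaving out any other single array (adjusted p 0.00422 to 0.160 over all alternatives). With the unmoderated test Lsm11 missed the limit (0.0630), and the gene that passed was Zcchc11, a uridyl transferase named after its values were seen (-0.66, adjusted p = 0.0471 with that test and 0.0631 in limma). Slbp, which binds the stem-loop, differed by 0.50 (adjusted p = 0.368), Lsm10, the partner of Lsm11, by 0.01 (0.988), and Casp8ap2, which joins the cleavage complex, by -0.48 (0.167).

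Of 11 genes that drive histone transcription, 9 were tested and 0 passed in limma or with the unmoderated test (3 higher and 1 lower at an unadjusted p under 0.05 in limma), with a median of 0.24. Npat, the coactivator of the histone clusters, was not well above background on any array and was not tested. Hinfp, which binds H4 promoters, differed by 0.24 (adjusted p = 0.686), Yy1 by 0.23 (0.714) and the octamer factor Pou2f1 by 0.07 (0.824). The dimmer probes of Hinfp and Pou2f1 differed by -0.17 and 0.48. Among 22 histone chaperone genes, all tested, 0 rose and 1 fell in limma (2 higher and 3 lower at an unadjusted p under 0.05, and 0 and 1 past the adjusted limit with the unmoderated test), with a median of 0.06. Daxx, a chaperone of a replacement H3, gave 46081, 52108 and 47233 against 102726, 108068 and 90516. Its labels lay apart, and it fell by 1.05 on the log2 scale (SE 0.16, adjusted p = 0.0317), or by 0.82 with an adjusted p of 0.0624 under 75th percentile scaling (0.00447 to 0.147 over all alternatives). Of single arrays, leaving out any but GapmeR Ntep replicate 2 lost the call, and the unmoderated test kept it (0.0473). Asf1a and Asf1b, which carry new H3 and H4 to the fork, differed by -0.48 (adjusted p = 0.130) and -0.24 (0.484). The store-keeping Nasp differed by -0.09 (adjusted p = 0.731) and the assembly factor subunit Chaf1a by 0.63 (0.141). A second, dimmer Nasp probe differed by -1.03 and did not pass. With experiments as blocks the H3 chaperone Hira passed (0.80, adjusted p = 0.0443 in place of 0.162, and 0.0141 to 0.340 over all alternatives).

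DNA replication genes, which are busy when histone genes are, had a median of 0.05 over 30 tested genes, or 0.22 with 75th percentile scaling. In limma 1 rose and 0 fell (3 higher and 3 lower at an unadjusted p under 0.05, and 0 and 0 past the adjusted limit with the unmoderated test). Orc1, a subunit of the origin recognition complex named Orc1l on the array, rose by 1.12 (adjusted p = 0.0497), which no single omission of an array kept and 75th percentile scaling lost (0.0650, and 0.00488 to 0.183 over all alternatives). The helicase subunits Mcm2, Mcm3, Mcm4 and Mcm5 differed by 0.30, 0.30, 0.29 and 0.29, with adjusted p-values of 0.390, 0.367, 0.411 and 0.404. Named after their values were seen, the other subunits Mcm6 and Mcm7 differed by -0.47 (0.205) and 0.0016 (0.997). The list's lowest differences, also named after the values were seen, were those of Pole, Pold1 and Uhrf1. The polymerase genes Pole and Pold1 differed by -0.99 (0.0764) and -0.90 (0.249), and Uhrf1, which reads methylated DNA, by -0.93 (0.0621). In experiments 1, 2 and 3, Pold1 differed by -1.63, -0.52 and -0.54, farthest in experiment 1. The probes of Pole ran from -0.99 to 0.05. For Cdc6, the loader of the Mcm helicase, the brightest probe differed by 0.56 and another rose by 1.06 (adjusted p = 0.0307). The brightest gave 1.09, -0.53 and 1.13 in experiments 1, 2 and 3.

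Markers of cell types were read beside the histone genes. Of 14 fibroblast markers, 13 were tested, 0 rose and 1 fell in limma (0 higher and 4 lower at an unadjusted p under 0.05, and 0 and 1 past the adjusted limit with the unmoderated test), with a median of -0.47, or -0.23 with 75th percentile scaling. Summed over the list, signals were 692823, 862838 and 670846 with the GapmeR Ntep label and 1017581, 1044427 and 959878 with the GapmeR control label. The brightest probe was that of S100a4 by the mean of the arrays labelled GapmeR Ntep and that of Col3a1 by the mean of the control arrays, which does not rank their abundance, and Lum was above background on 1 control array alone. Fbn1, the microfibril protein fibrillin, fell by 0.88 (adjusted p = 0.0439, 0.0598 and so not passing with the unmoderated test, 0.0663 with 75th percentile scaling and 0.00802 to 0.168 over all alternatives), and no single omission of an array kept that call. The marker that passed with the unmoderated test was Sparc, a matrix protein named after its values were seen (-0.37, adjusted p = 0.0468 with that test and 0.183 in limma). The collagen genes Col1a1, Col1a2, Col3a1 and Col5a1 differed by -0.43, -0.71, -0.81 and -0.38, with adjusted p-values of 0.212, 0.135, 0.164 and 0.256. In experiments 1, 2 and 3, Col1a1 differed by -0.53, -0.11 and -0.66 and Col3a1 by -1.15, -0.61 and -0.68. What the Ntep signal of experiment 1, which goes against its label, means for these genes was not tested. With experiments as blocks the proteoglycan Dcn passed, well above background on 1 array labelled GapmeR Ntep and 3 control arrays (-1.84, adjusted p = 0.0310 in place of 0.364, and 0.0310 to 0.679 over all alternatives). Its difference was -0.997 without GapmeR Ntep replicate 1, -1.14 without GapmeR control replicate 2 and -2.86 without GapmeR control replicate 1.

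Of 10 macrophage and leukocyte markers, 6 were tested, 1 rose and 0 fell in limma (4 higher and 0 lower at an unadjusted p under 0.05, and 0 and 0 past the adjusted limit with the unmoderated test), with a median of 1.16. Over all 10, without the filter, the median was 0.29, and 0.15 with normexp background correction. Summed over the list, signals were 75388, 42587 and 50639 with the GapmeR Ntep label and 27535, 20059 and 21465 with the GapmeR control label. Itgam, an integrin, had the brightest probe of the list, which does not rank its abundance, and differed by 1.26 (adjusted p = 0.0881), while its other tested probe differed by -0.03. Cd68, a lysosomal protein, rose by 1.21 (adjusted p = 0.0287, and 0.00357 to 0.136 over all alternatives). That call stood on leaving out GapmeR Ntep replicate 2 and not on leaving out any other array. A second, dimmer Cd68 probe differed by 0.68. The receptor Csf1r differed by 3.19 (adjusted p = 0.151), and its probes ran from 0.43 to 3.19. With experiments as blocks Itgam (0.0397), Csf1r (0.0387) and Cd14, the coreceptor for bacterial lipid (1.11, 0.0332 in place of 0.0627), passed as well, in ranges of 0.00794 to 0.269, 0.0140 to 0.376 and 0.00647 to 0.215 over all alternatives. The defining markers Ptprc, Emr1 and Fcgr1 were not above background on any array. Of 10 epithelial and endothelial markers, 8 were tested and 0 passed in limma or with the unmoderated test (2 higher and 0 lower at an unadjusted p under 0.05 in limma), with a median of 0.39. That median was 0.25 without GapmeR Ntep replicate 1, and over all 10 it was 0.17 with normexp background correction. Summed over the list, signals were 8574, 4757 and 4126 with the GapmeR Ntep label and 3705, 4741 and 4701 with the GapmeR control label, with Krt8 read by the brightest probe, and Cdh5 and Tek not above background. Epcam, Cdh1, Krt8 and Krt18 differed by -0.02, 0.47, 0.20 and 1.56, with adjusted p-values of 0.985, 0.579, 0.792 and 0.185. In experiments 1, 2 and 3, Epcam differed by 0.79, -1.02 and 0.17 and Cdh1 by 0.12, 0.98 and 0.32. Krt8 differed by 1.45, -0.23 and -0.62 in these, and Krt18 by 2.99, 0.32 and 1.35. A second Krt8 probe differed by -0.32. With experiments as blocks the keratin Krt14 passed (1.39, adjusted p = 0.0391, and 0.0391 to 0.701 over all alternatives). The difference of Krt14 was 0.75 without GapmeR Ntep replicate 1, 0.89 without GapmeR control replicate 2 and 2.29 without GapmeR control replicate 1. For all 3 lists, their part in the result for histone genes was not tested.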

How the data were processed

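Expression was measured with 6 Agilent 1-color mouse arrays, 3 per label. The authors extracted the scans with Agilent Feature Extraction 10.7.3.1 and deposited background-subtracted signal intensities per array, in arbitrary linear units, with the arrays not yet normalized to each other. The deposited series table holds quantile-normalized intensities with values under 20 set to 20, which served as an alternative.

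Spots of a probe were averaged. Arrays were quantile normalized, values under 20 set to 20, and log2 values of the 30990 probes whose brighter group averaged 50 or more were compared, unpaired and two-sided, in R 4.3.3 (limma 3.58.1; package data.table, version 1.17.8). Replicate numbers follow the order of deposition, since the labels state no pairing. Within a replicate number, residuals from the label means had correlations of 0.466, 0.3 and 0.254, and between numbers of -0.327 to 0.126. For each probe these residuals sum to 0 within a label, so positive values within numbers push those between numbers down. The values between numbers are therefore no separate support for the pairing. A fit with experiments as blocks was run beside the unpaired fit. The steps were also tested on simulated data. With 3 arrays per label, precision is limited by their number.

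Histone probes were read by their array names, which RefSeq matched for 50 of 51 probes. Members and gene lists were chosen with earlier results of these data known. Named are the members past the adjusted limit and, by class, the member with the highest control mean and up to 3 each with the largest higher and lower differences, and of other lists the members past the limit and the first 4, all by the brightest probe. Other members were named after their values were seen.

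Alternatives were 75th percentile scaling, normexp background correction (offset 50), the authors' normalized values, a floor of 50, no filter, probes well above background on all arrays, omission of outlier spots, blocks, an eBayes trend, array weights, the unmoderated t-test of the study's methods, the brightest probe per gene and the omission of each array. Estimating the spread prior over all probes and omitting both arrays of experiment 1 were chosen after seeing the data.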

Additional observations from a re-analysis of the deposited data

How the results depend on the processing

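Each histone probe past the adjusted limit under any alternative was higher with the GapmeR Ntep label. None was lower in limma or the unmoderated test, with 0 lower at an unadjusted p under 0.05 under any of them. In place of 6, the number higher past the adjusted limit was 3 without the filter (0.524% of all tested probes, in place of 2.09%), 11 among probes well above background on every array (5.16%), 16 with experiments as blocks (6.54%), 11 with an eBayes trend (3.73%), 19 with array weights (17.4%) and 1 with the unmoderated test (0.474%), which tests each probe by its own spread. With a fold of 2 or more at an unadjusted p under 0.01, that test gave 4 higher in place of 12 (3.08% of all tested probes in the main fit). Leaving out single arrays gave 0 to 8 higher past the adjusted limit, beside 0% to 1.65% of all tested probes. By the fold and unadjusted limit it gave 7 to 15, and 0 were lower by either rule. Shares of all tested probes by the fold rule are not given for these alternatives, so nothing is read from these fold counts. The median of the histone probes lay between 0.46 and 0.78 on leaving out single arrays.

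The median of the replication-independent histone genes was 0.26 with 75th percentile scaling, 0.021 with a floor of 50, 0.021 without the filter and 0.15 with array weights. The S phase median was 0.22 with 75th percentile scaling, and that of processing and turnover genes 0.29 with array weights. For chaperone genes it was 0.15 with 75th percentile scaling and 0.10 with array weights. On leaving out single arrays, medians ran from 0.037 to 0.14 (replication-independent), 0.14 to 0.24 (processing), 0.054 to 0.44 (transcription), 0.0022 to 0.097 (chaperones) and 0.057 to 0.12 (S phase). The causes were not tested. With the spread prior estimated over all probes, 4 of the 6 histone calls stood, without Hist1h1t (0.0766) and Hist1h2bp (0.0713). Of all tested probes, 2.69% were then called higher. Blocks ended none of the 6 calls and changed no call on a named gene beyond those given above.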
